A study of Mus musculus with 22 samples.

Results

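Lungs of embryonic day 16 (E16) were compared with lungs of embryonic days 12 and 14 (E12 and E14) in a developmental series of normal Swiss Webster mouse lung. The members were chosen by the age in the labels, and made up 3 of the series' 11 RNA pools and 6 of its 22 arrays. Each of the E16, E12 and E14 pools combined RNA of at least 3 whole lungs, and 10 µg of it was labelled and hybridised once to each of the 2 chips of the Affymetrix Mu11K set, called chip A and chip B here. The labels name no treatment or genotype for any pool, nor the sex or number of litters. With 1 pool per age (n = 1), no difference below has a replicate or a p-value, and E12 and E14 are separate ages rather than replicates of a group.

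Each array gave 1 linear signal intensity for a probe set. Signals under a chip's 25th percentile were set to that floor, which was 72.3 on chip A and 47.3 on chip B, and a fold against the floor is a lower bound. Differences are on the log2 scale, E16 minus the mean of E12 and E14. A gene was said to have risen or fallen only where its E16 signal was at least 2-fold above or below both earlier pools. Its fold is given against the nearer of these pools, so the other pool was further away. A gene was compared where the higher of its E16 signal and its earlier mean lay above the chip median, 250.3 on chip A and 176.7 on chip B. This left 3662 of the 6117 genes named on either chip.

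In the mouse the lung bud grows into an airway tree by repeated branching of an epithelium inside mesenchyme, under FGF, WNT, hedgehog, BMP and retinoic acid signals. As the branching phase gives way to the canalicular phase, the distal tubules widen, capillaries come close to them, and the epithelium at their tips begins to form the type I cells of gas exchange and the type II cells that secrete surfactant. E12 and E14 lie in the branching phase, and E16 lies near its end. A whole-lung pool sums over all its cells, so more cells of a type and more RNA per cell cannot be told apart.

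Of the 3662 compared genes 117 rose at E16, which is 3.19%, and 61 fell, which is 1.67%. Each list count below is to be read beside these shares, by which a short list holds few or no such genes. The members that rose included genes of type I and type II alveolar cells, epithelial junctions, vessels, elastic fibres and other matrix. Embryonic globins, secreted WNT inhibitors and the genes Hmga2, Sox11 and Wt1 were among those that fell. Of the genes that rose, 21 were at least 4-fold and 5 at least 8-fold above both earlier pools, and of those that fell 12 and 3 were as far below. Counted by probe set, 3.25% of 6738 passed upward and 1.8% downward. Over all compared genes the median difference was -0.00 with an SD of 0.59, while E14 minus E12 had an SD of 0.40. In 76 of the 117 genes that rose E14 already lay above E12, and in 45 of the 61 that fell E14 already lay below E12, against 49.5% of all compared genes with E14 above E12.

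**Figure D1:**
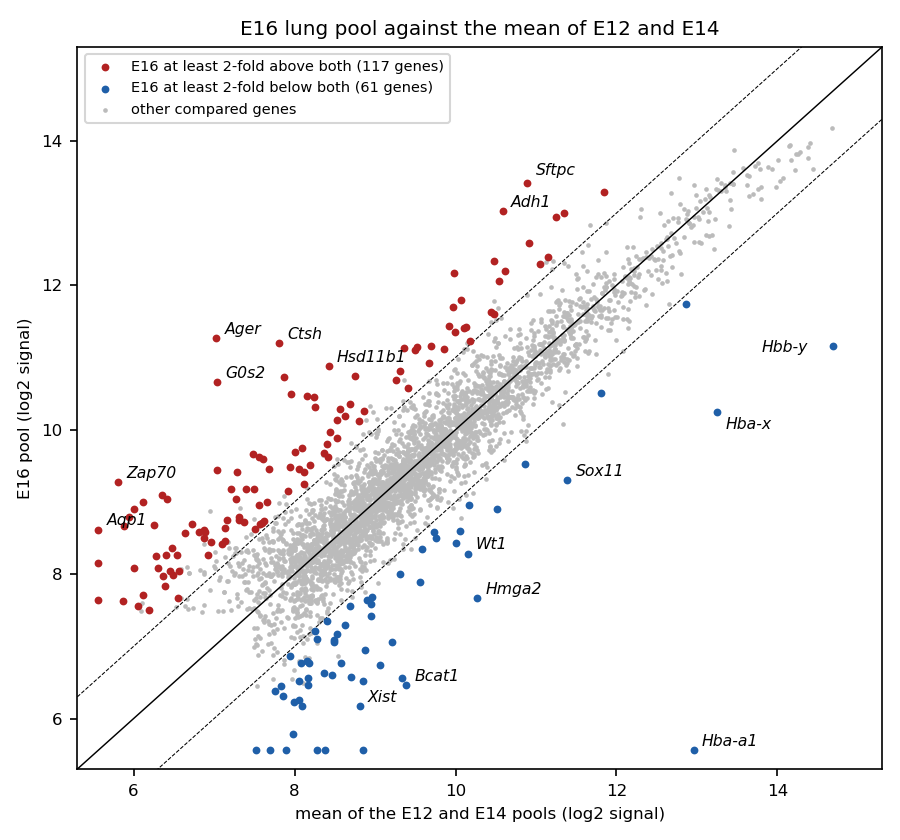
Signal of 3662 genes in the E16 pool (vertical axis, log2) against the mean of the E12 and E14 pools (horizontal axis, log2), 1 point per gene. Red points are the 117 genes at least 2-fold above both earlier pools and blue points the 61 at least 2-fold below both; dashed lines mark 2-fold from the mean, and the row of points along the lower edge lies at the chip B floor of 47.3.

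Every pool was on both chips, and genes with a compared probe set on each show how far a value repeats. For 188 such genes, the SD of the difference between chips was 0.48 (log2), the sign matched in 75.5%, and Pearson's r across these genes, which share pools and scaling, was 0.68. Of 16 genes past the fold on at least 1 chip, all 16 had the same sign on both and 5 passed on both. Genes that the filter left out on 1 chip are not in this count, so it does not cover all disagreements. Of such genes Plaur had 1.48 on chip B and -0.18 on chip A, and S100a13 had 1.32 and -0.24. Mgp had 1.62 on chip B and 1.15 on chip A. The 5 that passed on both were Anxa2, Gsn, Crip1 and S100a10, which rose, and Hbb-y, which fell. Anxa2, a membrane-binding annexin, had 5086 on chip A and 6147 on chip B at E16, against 1416 and 1731 at E12 and 1745 and 2140 at E14. Its difference was 1.69 on chip A and 1.68 on chip B, whereas Myb, which encodes a transcription factor of blood cell precursors, gave 1.88 on chip A and 0.40 on chip B.

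**Figure D2:**
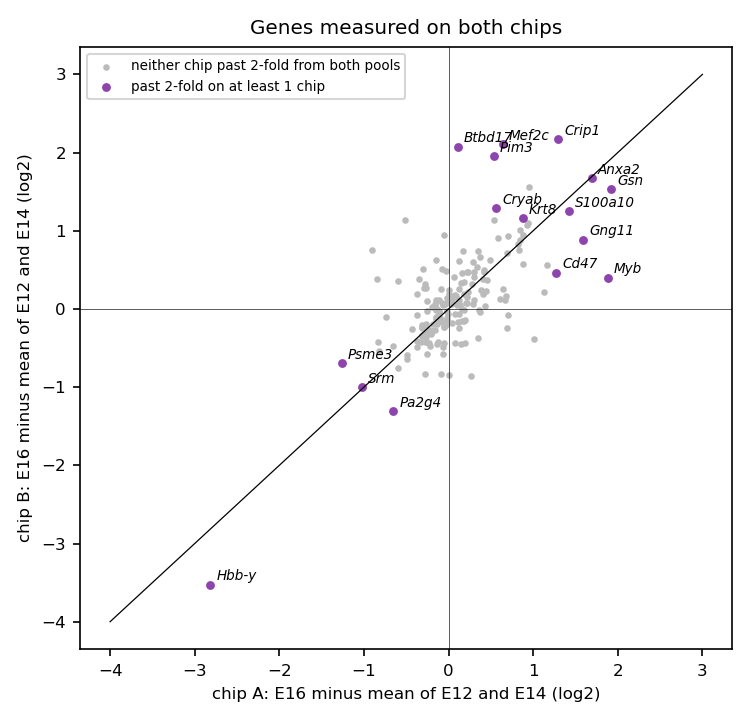
Difference of E16 from the mean of E12 and E14 (log2) on chip A (horizontal axis) and chip B (vertical axis) for the 188 genes compared on both chips. Purple points are the 16 genes past 2-fold from both pools on at least 1 chip, all of the same sign on both, and the diagonal marks equal differences.

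Control signals, RNA ratios and markers of other tissues also differed between the pools, and their part in the results was not tested. The spiked control BioC had a signal of 766 on chip A and 1124 on chip B at E16, against 2047 and 2220 at E12 and 1025 and 1150 at E14. The 3' to 5' signal ratio of Gapdh, a sign of RNA integrity, was 0.65 on chip A and 0.78 on chip B at E16, 0.73 and 1.06 at E12 and 0.70 and 0.72 at E14. The same ratio of Actb was 0.40 and 0.29 at E16, 0.39 and 0.94 at E12 and 0.39 and 0.49 at E14. The summed signal of 5 lung epithelium markers on the chips was 14445 at E16, against 4741 at E12 and 6455 at E14. Sftpc made up most of it at E16, with 10931, against 1437 and 2515, while Scgb1a1 was lower at E16 and Foxa1 and Foxa2 did not pass. Markers of skeletal muscle summed to 1721, against 705 and 1320, and those of heart muscle to 3620, against 3273 and 4218. For liver and yolk sac the sum was 1108, against 812 and 1431, and no marker of these 3 tissues passed the fold, although Ckm and Myh8 of the longer skeletal muscle list rose. Cartilage Col2a1 and the thymus genes Cd8a and Rag1 lay at the floor in the 3 pools. Xist, the RNA of the inactive X chromosome, lay at the floor at E16, against 425 at E12 and 474 at E14, a fall of at least 5.87-fold. The Y-linked Kdm5d had 176 at E16, against 165 at E12 and the floor at E14.

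Type I cells, the thin cells of the air-blood barrier, gave the largest rise with all 3 signals above the floor. Ager, the receptor for advanced glycation end products and a marker of these cells, had a signal of 2477 at E16, against 167 at E12 and 102 at E14. It was 14.8-fold above the nearer pool, and it had 10546 at E18 and 10231 in the adult. Of the 9 type I genes on the chips 6 were compared, and 3 of these rose. Pdpn, the mucin-type surface protein podoplanin, had 425, against 197 at both earlier ages. Limch1, an actin-associated protein, had 609, against 252 and 303, and sat just past the fold at 2.01. The median difference was 0.90 over the 6 compared members and 1.05 over all 9 on the chips without the filter.

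Of the surfactant and type II cell genes, 6 of the 9 compared members rose and none fell, out of 14 on the chips. The median difference was 1.67 over the 9, and 0.69 over all 14 without the filter. Ctsh, a lysosomal protease that trims surfactant proteins, had 2345 at E16, against 204 and 245 at E12 and E14, a 9.58-fold difference from E14. Sftpc, the surfactant protein that marks distal lung epithelium, had 10931, against 1437 and 2515, and was 4.35-fold above E14. Its E16 signal was its highest of the 11 ages, with 3274 at E18, 10058 at P21 and 630 in the adult. That uneven course rests on 1 probe set and 1 pool per age. The other members of the list that rose were higher at E18 than at E16, such as Ctsh with 6816. Muc1, a membrane mucin of the apical surface, had 527, against 80.5 and 89.7. Slc34a2, the phosphate transporter of type II cells, had 409, against the floor at E12 and 80.2 at E14, at least 5.10-fold. Lyz2, the lysozyme of type II cells and macrophages, had 1647, against 566 and 664, and Ctsc, another lysosomal protease, had 1310.5, against 344 and 491. The E12 and E14 signals of these 6 genes lay close together except for Sftpc and Ctsc, where E14 was higher. Lpcat1, which remodels surfactant lipid, had 1045, against 788 and 854, and did not pass. None of the 16 compared lipid synthesis genes passed, with a median difference of -0.01.

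Promoters of 4 genes, 2 lung epithelial genes that rose and 2 embryonic globins that fell, are printed to show what lies at their start sites, from RefSeq on GRCm38.p6. Each run covers 250 bases before and 50 bases after the annotated start, 5' to 3' on the gene's strand, and promoters were in the table for 91 of the 117 genes that rose and 46 of the 61 that fell. Capitals mark every match, on either strand, to 5 motifs whose letters were chosen after the sequences were read. The core of NKX2 sites was searched as CTCAAG. For erythroid GATA factors the letters were GATAA, and for the KLF sites known from globin promoters they were CCACCC. The others were the CCAAT box and the TATA box written as TATAAA, and no matches overlapped.
Ager (chr17:34597600-34597899, + strand): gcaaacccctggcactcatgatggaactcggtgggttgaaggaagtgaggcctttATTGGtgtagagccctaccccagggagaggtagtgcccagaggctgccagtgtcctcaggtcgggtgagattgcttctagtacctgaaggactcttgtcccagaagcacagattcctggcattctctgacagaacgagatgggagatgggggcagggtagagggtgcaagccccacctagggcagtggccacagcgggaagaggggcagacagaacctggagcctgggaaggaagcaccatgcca
Muc1 (chr3:89228806-89229105, + strand): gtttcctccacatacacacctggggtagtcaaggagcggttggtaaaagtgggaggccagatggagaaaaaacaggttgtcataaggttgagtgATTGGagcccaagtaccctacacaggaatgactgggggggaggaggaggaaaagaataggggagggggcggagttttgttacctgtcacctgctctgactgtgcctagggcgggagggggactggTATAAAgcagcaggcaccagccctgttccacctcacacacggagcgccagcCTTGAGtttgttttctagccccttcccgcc
Hbb-y (chr7:103853158-103853457, - strand): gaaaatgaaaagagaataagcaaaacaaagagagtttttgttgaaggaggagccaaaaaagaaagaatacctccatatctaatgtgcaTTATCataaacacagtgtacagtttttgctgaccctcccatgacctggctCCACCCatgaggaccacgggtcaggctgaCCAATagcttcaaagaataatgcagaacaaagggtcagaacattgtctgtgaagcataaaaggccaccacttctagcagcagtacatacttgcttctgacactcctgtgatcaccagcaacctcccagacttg
Hba-x (chr11:32276350-32276649, + strand): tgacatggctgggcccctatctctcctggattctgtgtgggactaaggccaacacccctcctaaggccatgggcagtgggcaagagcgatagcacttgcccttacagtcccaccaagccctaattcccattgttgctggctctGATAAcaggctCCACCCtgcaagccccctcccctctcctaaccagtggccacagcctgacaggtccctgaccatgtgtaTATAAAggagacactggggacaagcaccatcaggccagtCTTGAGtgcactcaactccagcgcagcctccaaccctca
Muc1 held the TATA box at position -31 from the start and the NKX2 core at position 20, and the globin gene Hba-x held both too, at positions -28 and 11. The Ager window held neither. Both embryonic globin windows held the GATA and KLF letters, at positions -162 and -112 in Hbb-y and at positions -107 and -96 in Hba-x. Over all 32851 promoters of this length the NKX2 core was found in 15.9%, the GATA letters in 25.4%, the KLF letters in 31.5%, the CCAAT box in 37.4% and the TATA box in 13.6%, so a match is only a description of the letters.

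Airway and general epithelial genes rose in part. Hp, the haemoglobin-binding plasma protein haptoglobin, had 348, against 111 at E12 and 140 at E14, and Cbr2, a carbonyl reductase of club cells, had 1109, against 474 and 421. Scgb1a1, the main secretory protein of club cells, did not pass: it had 1391 at E16, against 1798 and 2251, on chip B, and 331, against 296 and 1150, on chip A. So 2 of the 5 compared club cell genes rose, out of 13 on the chips, and the median over all 13 without the filter was 0.08. None of the 5 compared ciliated cell genes passed, and Foxj1, the regulator of motile cilia, had 327, against 148 and 284.

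Among 20 compared keratin and junction genes 4 rose and 1 fell, and 16 of the 20 differences lay above 0, against 49.5% of all compared genes. The median difference was 0.62 over the 20 and 0.40 over all 25 on the chips without the filter. Cdh1, epithelial E-cadherin, had 3333 at E16, against 839 and 1204, a 2.77-fold difference from E14. Cdh2, N-cadherin of mesenchyme and nerve, went the other way with 171, against 537 and 455. Cldn3, a claudin of tight junctions, had 827, against 257 and 255, and Krt19, a simple-epithelium keratin, had 1278, against 236 and 398. Between the earlier pools E14 lay above E12 in Krt19 and Cdh1 but not in Cldn3. Atp1b1, a subunit of the sodium pump that drives fluid transport, had 4624, against 1040 and 975, a 4.45-fold difference. Tspan8, a tetraspanin of epithelial surfaces, had 1692, against 190 and 290, and Lmo7, a protein of cell junctions, had 694, against 119 and 146.

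**Figure D3:**
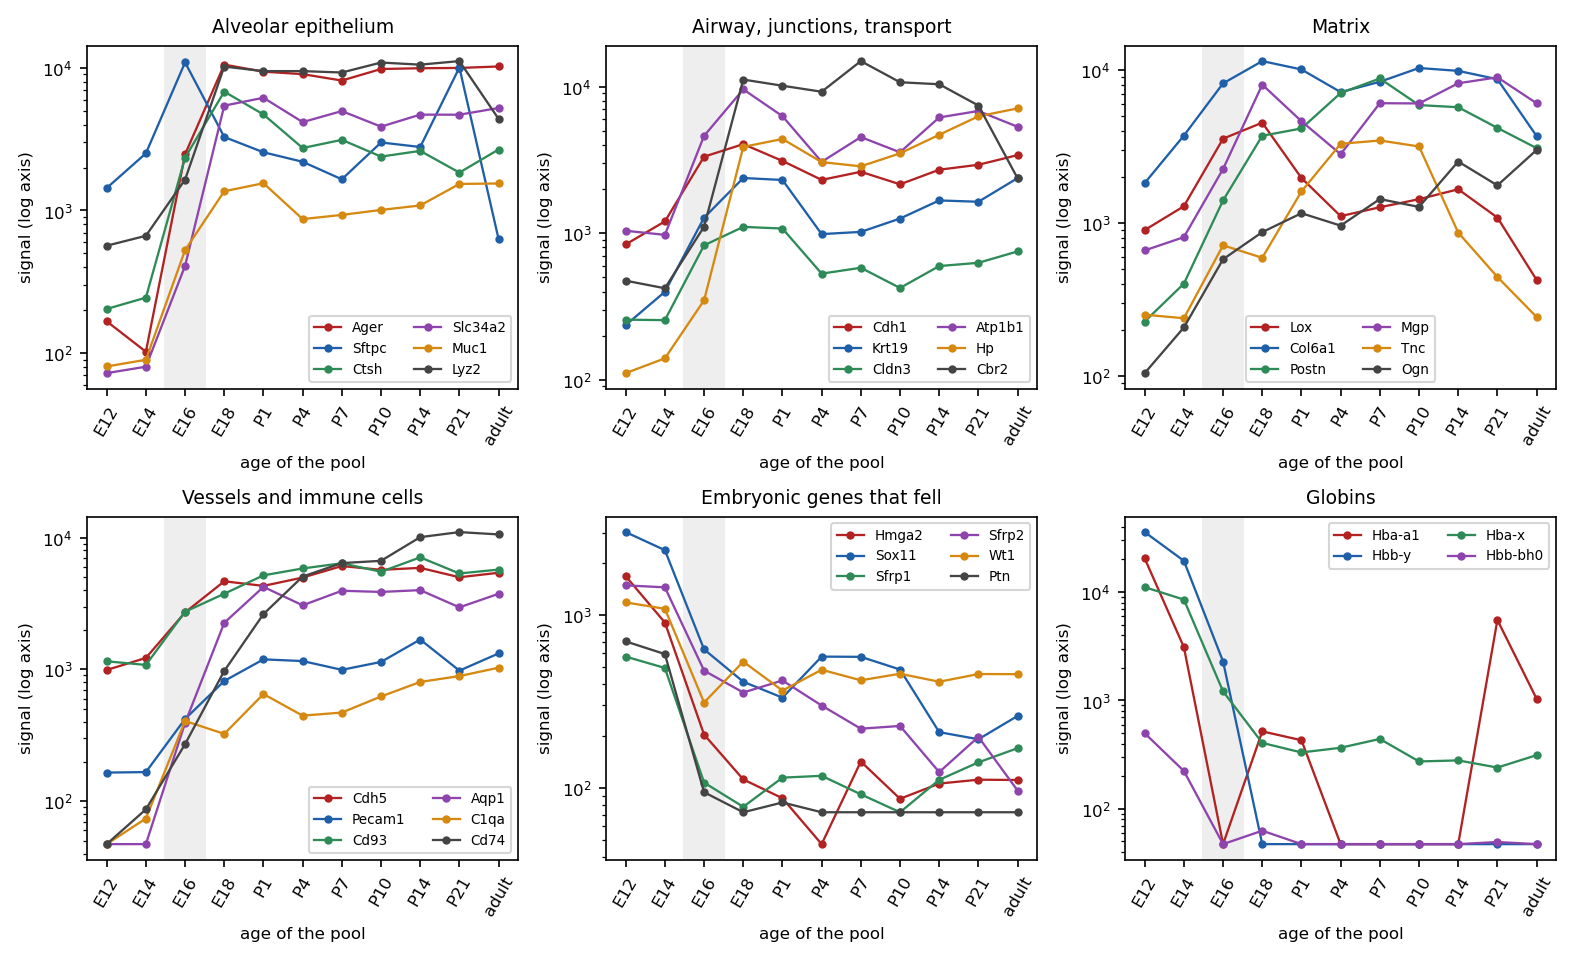
Signals of named genes in the pools of 11 ages (horizontal axis, in order of age; vertical axis, signal on a log scale), with E16 shaded; points are single pools, joined for reading. Ager climbs through 2477 at E16 to 10546 at E18, Sftpc peaks at 10931 at E16, and Hbb-y lies at the floor of 47.3 from E18 on.

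Lung transcription factors moved little as a list, with 2 of 21 compared members rising, 1 falling and a median difference of 0.05. Nkx2-1, the regulator of lung epithelial identity, had 199 at E16, against 51.4 and 66.6, all low signals on chip B. Its rise did not hold with the floor raised to the 40th percentile, where the difference was 0.85. Tcf21, a regulator of lung mesenchyme, had 2624, against 844 and 1238, and its second probe set had 715, against 329 and 408, which did not pass. Sox11, a factor of immature cells, fell to 634, against 3025 at E12 and 2379 at E14. Foxa1, Foxa2 and Foxf1 did not pass, with differences of 0.37, 0.18 and -0.11.

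Branching signals were split. Of 26 compared genes 4 rose and 3 fell, out of 42 on the chips, with a median difference of 0.35 over the 26 and 0.00 over the 42. Among ligands Fgf7, which acts on epithelial FGF receptors, had 284 at E16, against the floor at both E12 and E14, so that its fold is a lower bound. Among receptors Fgfr4 had 703, against 257 and 165, and 2 more receptors, named after their values were seen, rose as well. These were Fgfr3 with 1164, against 359 and 438, and the hedgehog receptor Ptch1 with 341, against 152 and 122. The hedgehog ligand Ihh, outside the list and also named after its value was seen, fell to 76.2, against 311 and 228, on chip B. Its chip A probe set lay at the floor in all 3 pools. Fgfr1 and Fgfr2 did not pass, with differences of -0.54 and 0.69. Of secreted WNT inhibitors, Sfrp1 fell to 107, against 575 and 495, and Sfrp2 to 477, against 1487 and 1449. Lef1, a nuclear effector of WNT signalling named after its value was seen, fell to 124, against 669 and 328. Bmp7 missed the fold by the narrowest margin on the falling side, with 89.9, against 421 at E12 and 179.6 at E14.

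The compared homeobox genes lay mostly below their earlier level: 12 of the 14 had a negative difference. Of all compared genes 49.5% lay above 0. The homeobox median was -0.64, and -0.16 over all 23 on the chips. On this list 1 gene fell, Hoxa4, with 144, against 413 and 332, and 1 rose, Hoxa6, with 203, against 97.8 and 89.3. Hoxb13, a homeobox gene outside the list and named after its value was seen, fell to 99.4, against 465 and 236. Hoxb6 had 1013, against 2233 and 1574, and Meis1, a cofactor of Hox proteins, had 714, against 1532 and 1180.0, and both stayed within the fold of E14.

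Retinoid genes shifted in opposite directions. Aldh1a2, which makes retinoic acid in embryonic mesenchyme and mesothelium, fell to 91.6, against 629 and 338. Adh1, an alcohol dehydrogenase that can oxidise retinol, had 8334, against 877 and 2697, and Rxra, a nuclear receptor, had 821, against 366 and 299. Rarres2, the retinoid-inducible chemoattractant chemerin, had 547, against 82.5 and 81.4, a 6.63-fold difference. In all 3 of 12 compared members rose and 1 fell, with a median of 0.14. Of 7 compared mesothelial genes 2 rose (Krt19 and Krt8, which other epithelia share) and 2 fell (Aldh1a2 and Wt1), with a median of 0.67. Wt1, a mesothelial and mesenchymal factor, had 312, against 1185 and 1088, and its second, dimmer probe set had 83.6, against 169 and 139. Upk3b, a mesothelial surface protein, had 341, against 659.6 and 459.6, without passing.

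The pair of enzymes that set local glucocorticoid levels moved apart. Hsd11b1, which regenerates the active steroid, had 1889 at E16, against 392 at E12 and 300.02 at E14, a 4.82-fold difference. Hsd11b2, which inactivates it, fell to 237, against 981 and 581. Cebpb, a transcription factor active in lung epithelium and liver, had 2287, against 751 and 918. Fkbp5 and Mt2, both known glucocorticoid targets, had differences of -0.29 and -0.01. Of 11 compared genes on this list 2 rose and 1 fell, with a median of 0.64 and 7 above 0. Over all 15 on the chips without the filter the median was 0.31. Hsd11b1 went on to 8717 at E18 and 9431 in the adult.

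All 19 compared vessel genes, out of 37 on the chips, had a positive difference, between 0.07 and 3.05, and 4 rose. A positive difference was found in 49.5% of all compared genes. The median was 0.85 over the 19 and 0.30 over the 37. Cdh5, the cadherin of endothelial junctions, had 2706, against 990.3 and 1222, and Pecam1, an endothelial adhesion molecule, had 421, against 165 and 166. Cd93, a receptor of endothelium and myeloid cells, had 2741, against 1153 and 1082. Aqp1, a water channel of capillaries, had 393, against the floor in both earlier pools, at least 8.30-fold, and had 3747 in the adult. Kdr, the main VEGF receptor, had 1026, against 824 and 794, and did not pass.

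Several matrix lists held genes that rose and none that fell. Of all compared genes 3.19% rose and 1.67% fell, so a list of this size may well hold none that fell. In the elastic fibre list 3 of 9 compared genes rose, with a median difference of 1.17. Over all 10 on the chips without the filter the median was 0.76. Lox, which cross-links elastin and collagen, had 3561, against 901 and 1289.7, and the latent TGF-beta binding proteins Ltbp3 and Ltbp2 had 856, against 204 and 362, and 400.1, against 114 and 174. Eln, elastin itself, had 7326, against 2409 and 4408, and stayed within the fold of E14. Its difference was 1.17 on chip A and 0.56 on chip B. Of 19 other matrix genes 6 rose. Postn, a cell-binding matrix protein, had 1407, against 228 and 403, and Ogn, a small proteoglycan, had 581, against 105 and 208. Tnc, tenascin C, had 716, against 252 and 239, and Mgp, an inhibitor of calcification, had 2258, against 664 and 810.3. Vcan, versican of loose mesenchyme, had 441, against 1347 and 853, and did not pass. Of 15 genes on the list of fibrillar collagens and assembly 2 rose, both chains of the microfibril-forming collagen VI, Col6a1 with 8179, against 1827 and 3731, and Col6a2 with 10047, against 2708 and 4982. The list's median was 0.06. In the basement membrane list 16 of 17 differences were above 0, against 49.5% of all compared genes. The median was 0.74, or 0.68 over all 20 on the chips without the filter, and 2 genes rose. Col4a1 had 5046, against 1855 and 2434, and Col18a1 had 2403, against 1125 and 1197, only just past the fold.

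**Figure D4:**
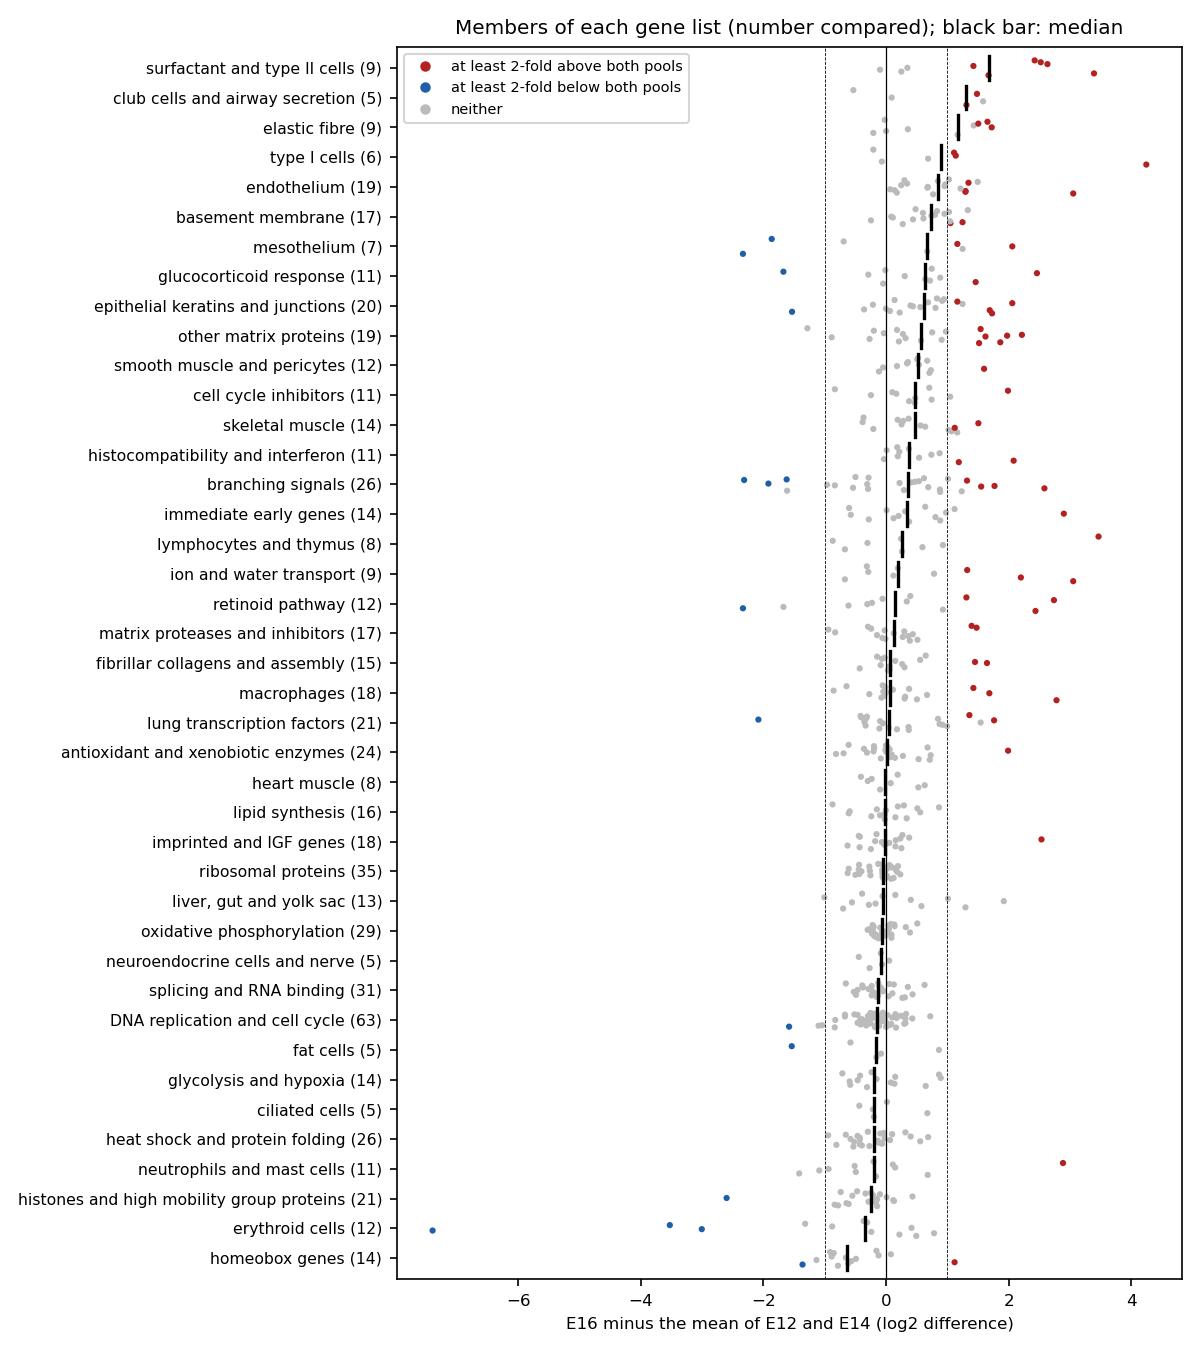
Difference of E16 from the mean of E12 and E14 (horizontal axis, log2) for each compared member of the gene lists with at least 5 such members, ordered by median. Red points rose, blue points fell, black bars are medians and dashed lines mark 2-fold from the mean; surfactant genes stand at the top with a median of 1.67 and homeobox genes at the bottom with -0.64.

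Red cell genes did not all move in the same direction. Hbb-y, an embryonic beta-type globin, had 2287 at E16, against 35736 at E12 and 19421 at E14, on chip B, and 1400.4, against 8761 and 11093, on chip A. Hba-x, the embryonic zeta-type globin, fell to 1212, against 11102 and 8521, a 7.03-fold difference. Hbb-bh0 fell to the floor, against 499 and 223. The adult-type globin Hbb-b2 had 15027, against 13126 and 9658, and the haem synthesis enzyme Alas2 had 3207, against 2477 and 2095, and neither passed. Globin probe sets are built on families of near-identical genes and their signals may be shared. A probe set named for Hba-a1 lay at the floor at E16, against 20444 and 3099, while a second one had 305, against 373 and 339, so the fall of Hba-a1 rests on 1 of its 2 probe sets. On the erythroid list, which does not hold Hbb-bh0, 3 of 12 compared genes fell, and the median was -0.34.

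The cell cycle genes rarely passed the fold, but most lay below their earlier level. Of 63 compared genes 1 fell and none rose, where 3.19% of all compared genes rose and 1.67% fell. The median difference was -0.15, and 17 of the 63 lay above 0, against 49.5% of all compared genes. The cyclin genes Ccnd2 and Ccne1 had differences of -1.10 and -1.04, short of the fold from the nearer pool. Mki67, present in dividing cells, had 5890.2, against 4560.4 and 4910.3, and Cdk1, the mitotic kinase, had 5295, against 4792 and 5198. The gene that fell was Cad, an enzyme of pyrimidine synthesis, with 345, against 1257 and 846. Hmga2, a chromatin protein of embryonic growth, fell to 204, against 1680.4 and 906, a 4.45-fold difference. Gadd45b, a stress-induced growth arrest gene, had 772, against 145 and 260.2, and Cdkn1b, a cyclin-dependent kinase inhibitor, had 1002, against 443 and 531, short of the fold. Srm, the spermidine synthase, had 2176, against 4354 and 4331, on chip B, just outside the fold, and 1099.7, against 2208 and 2275, on chip A, just inside it.

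Among immune genes 3 of 18 compared macrophage genes rose, 2 of 11 of histocompatibility and interferon, 1 of 11 of neutrophils and mast cells and 1 of 8 of lymphocytes, against 3.19% of all compared genes, and none fell. The list medians were 0.06, 0.37, -0.20 and 0.25 in that order. Over all members on the chips without the filter they were 0.00, 0.00, -0.08 and 0.00. C1qa, a complement chain made by macrophages, had 406, against the floor at E12 and 74.0 at E14, at least 5.50-fold, but C1qb and C1qc, chains of the same protein, had differences of 0.50 and 0.30, and C1qb had -0.30 on chip A. Ctss, a lysosomal protease of antigen presentation, had 579, against 186 and 174. Cd74, the class II invariant chain, had 271, against the floor and 86.8, and reached 10570 in the adult, while the class II chain H2-Aa had 319.8, against 316 and 339. B2m, the class I light chain, had 3164, against 1316 and 1467. Zap70, a T cell kinase, had 621, against 66.7 at E12 and the floor at E14, and lay at the floor again at E18. Srgn, a granule proteoglycan of blood cells, had 513, against 102 and the floor, at least 5.04-fold.

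Further genes with large changes had varied roles. G0s2, an inhibitor of triglyceride breakdown, had 1611, against 156 and 109.5, a 10.3-fold difference. Klf10, a TGF-beta-induced zinc finger factor, had 480.2, against 66.7 and 62.0. Ass1, of arginine synthesis, had 441, against 61.8 and 61.4. Igfbp7, an insulin-like growth factor binding protein, had 1445, against 179.6 and 346. Vldlr, a lipoprotein receptor, had 684, against 144 and 169. On the falling side Bcat1, which breaks down branched-chain amino acids, had 88.5, against 564 and 791, and Ptn, a secreted growth factor of embryonic tissue, had 94.4, against 705 and 595. Gm1673 fell to 133, against 701 and 497, and Maz to 94.9, against 566 and 307. Crp, Kcnj12 and Pacsin1 fell to between 55.1 and 97.4 at E16, and they had between 296 and 375 at E18.

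The ages after E16 show the later signals of these genes. The share of all compared genes with E18 above E16 was not counted. Of the 117 genes that rose, 92 had a higher signal at E18 than at E16, and 104 had their highest signal of all 11 ages after E16. E16 was the highest age of the other 13, which is 11.1%. By the rule a gene that rose cannot be highest at E12 or E14, and of the 2424 compared genes highest at neither, 11.6% were highest at E16. Of the 61 genes that fell, 37 had their highest signal at E12 and 10 at E14, and 44 were higher at E18 than at E16. The rule likewise shapes where the genes that fell are highest. It also picks them for a low E16 signal, which favours a higher one at E18.

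**Figure D5:**
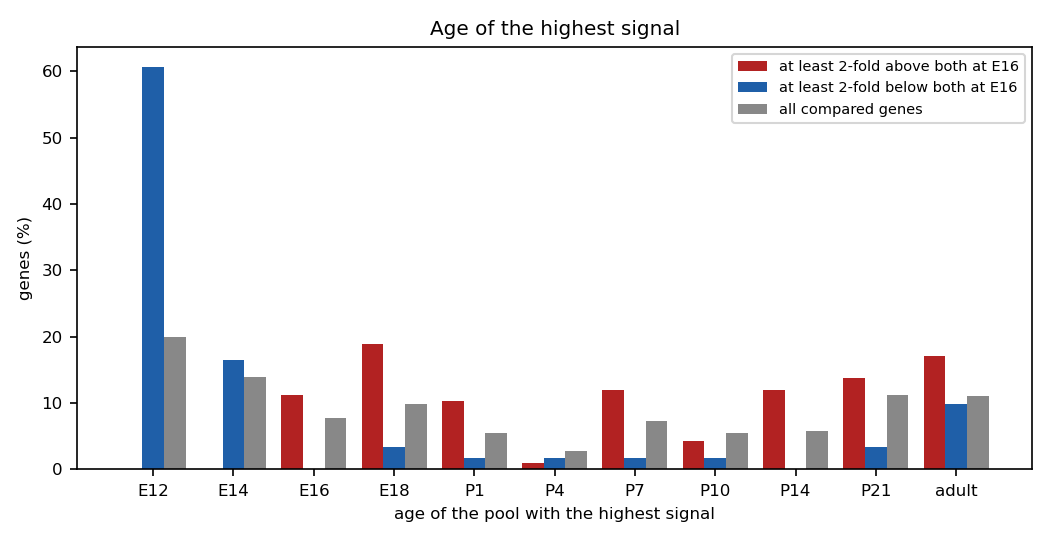
Share of genes (vertical axis, %) whose highest signal lay at each age (horizontal axis), for the 117 genes that rose at E16 (red), the 61 that fell (blue) and all 3662 compared genes (grey). Among the genes that fell 60.7% were highest at E12, and the genes that rose spread over E18 and the later ages.

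The genes at the edges of the rule were as follows. Ahnak and Col18a1 were the last to count as risen, with folds of 2.01 each over the nearer pool, and Slc39a4 and Bex4 were just short with 1.99. Cyp1a2 and Mrpl46 were the last to count as fallen, with 2.01 and 2.03, and Bmp7 and Srm were just short, Srm with 1.99.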

How the data were processed

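Gene expression was measured on Affymetrix arrays in pooled whole lungs, 1 pool per age, and the E16, E12 and E14 pools were compared. The authors deposited linear intensities, none of them negative. Array-wide scaling by the authors is read from the deposited values, whose 2% trimmed means ran over 500.1 to 500.2 on chip A and 498.4 to 498.9 on chip B. For the step that made probe set signals, the software is not given in the labels, and the scanner sheets were not used. Intensities were used as deposited, on each chip's own scale.

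Of 13156 probe sets 110 were controls, 7540 had 1 gene symbol, 222 several and 5394 none, and 2 with missing values were left out. Symbols came from the platform annotation, and 7537 were found in the RefSeq table of GRCm38.p6, which updated 9. Signals were floored at the 25th percentile, taken to log2 with no pseudocount, and filtered as described in the report. The probe set with the highest mean over the 3 ages stood for a gene, and in 557 genes more than 1 was compared. Of 6738 compared probe sets 219 (3.25%) passed the fold upward and 121 (1.8%) downward, 81 and 45 of them without a single symbol. No test was possible with 1 pool per age, so an array's error was read only from genes on both chips, and the number of arrays limits the precision.

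Named genes were, per direction, the 15 largest by distance from the nearer pool with no floored signal, the 8 largest with one, the 2 just inside and 2 just outside the fold, and up to 4 members of each of 42 gene lists past the fold, or 2 where none passed. Members and lists were chosen with earlier results of these data known. The procedure was tested on simulated data with less noise than the chips showed, and with changes larger than the fold and far from the floor. That checks the code and does not measure how reliable the calls are. Alternatives were 2 other floors, 2 other scalings, other filters, other folds, the mean over probe sets, and leaving out an earlier age. Python 3.11.15, pandas 2.3.3 and numpy 2.4.6 were used.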

Additional observations from a re-analysis of the deposited data

How the results depend on the processing

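The counts of 117 genes that rose and 61 that fell moved by less than 1.5 times with the floor at the 10th percentile (118 and 61) or the 40th (108 and 46), quantile normalization (114 and 60), a common median per array (123 and 65), the mean over probe sets (120 and 64) and without E12 (171 and 88). The count of genes that fell moved to 95 with no filter on the chip median, where 144 rose. A filter at the 75th percentile left 67 and 18. A fold of 1.5 gave 288 and 193, a fold of 3 gave 34 and 24, and leaving out E14 gave 225 and 157. Under quantile normalization 107 of the 117 and 56 of the 61 genes were called again. The cause of each move was not tested beyond the alternative's own construction, by which a looser rule or 1 pool less lets more genes through. The single genes below are those named by the rule, so other genes that lost a call are not listed. Of their values 1 reversed: Plaur, whose difference was -0.18 with no filter, from another probe set. With the floor at the 40th percentile, Chrnb1, Crp, Esr1, Hoxa6, Kcnj8, Lrrc23, Mrpl46, Myh8, Nkx2-1, Retn and Saa-ps lost their call, all at low signal. Quantile normalization took it from Ahnak, Ckm, Col18a1, Cyp1a2, Krt8, Limch1 and Mrpl46, a common median from Col6a2, Cyp1a2, Mrpl46 and Myh8, no filter from Plaur and Prkdc, and the mean over probe sets from Ckm, Krt8 and Tcf21. Without E12, the genes Esr1, Retn and Saa-ps were no longer compared. The filter at the 75th percentile left many named genes uncompared, among them Aqp1, Klf10, Muc1, Pdpn and Pecam1. No paired analysis was possible because each age is 1 pool and the labels number no replicates. Each difference rests on 1 pool per age, so litter, sex and hybridisation cannot be told apart from age, and signals near the floor have little precision.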

Other observations

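Muscle and transport genes held a few more members that rose. Of 12 compared smooth muscle and pericyte genes 1 rose. Their median difference was 0.52, and 0.35 over all 16 on the chips without the filter. The gene that rose was Kcnj8, a potassium channel of pericytes, with 265 at E16, against 78.7 at E12 and 96.8 at E14. Of 14 skeletal muscle genes 2 rose, with a median of 0.47 and, over all 23 on the chips without the filter, 0.25. These were Ckm, the muscle creatine kinase, with 3094, against 1367 and 1480.4, and Myh8, a perinatal myosin, with 188, against the floor and 92.8. A second probe set of Ckm had 1236, against 1003 and 934, and did not pass. Heart muscle genes did not pass, 0 of 8. Of 9 ion and water transport genes 3 rose, the third being Fxyd3, a regulator of the sodium pump, with 731, against 316 and 269.5. Of 17 matrix proteases and inhibitors 2 rose: Timp2, an inhibitor of metalloproteinases, had 700.1, against 237 and 298, and Plaur, the urokinase receptor, had 264, against 107 and 83.7, on chip B. On chip A Plaur had 152, against 167 and 178, a difference of -0.18, so its rise rests on 1 probe set. Mt1, a metal-binding protein, had 1714, against 313 and 593. It was the 1 of 24 antioxidant and xenobiotic genes that rose, near the 3.19% of all compared genes. Retn, the fat cell hormone resistin, fell to 91.6, against 295 and 240.1, as 1 of 5 compared fat cell genes.

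Genes of basic cell upkeep stayed within the fold. Of all compared genes 3.19% rose and 1.67% fell, so lists of this size would hold few or none at those shares. None passed among 35 ribosomal protein genes (median -0.04), 29 of oxidative phosphorylation (median -0.07), 31 of splicing and RNA binding (median -0.13), 26 of heat shock and protein folding (median -0.20) or 14 of glycolysis and hypoxia (median -0.19). None passed either among 13 liver, gut and yolk sac genes, 5 neuroendocrine and nerve genes and 4 cartilage genes. Apoc1, an apolipoprotein, came closest of the liver genes with 469, against 64.5 and 238. Of 21 compared histone and high mobility group genes only Hmga2 passed, of 18 imprinted and IGF genes only Igfbp7, of 14 immediate early genes only Klf10, of 11 neutrophil and mast cell genes only Srgn, and of 8 lymphocyte genes only Zap70.

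Several further genes rested on the floor on their lower side. Chrnb1, an acetylcholine receptor subunit, had 201 at E16, against the floor at both earlier ages. A second probe set of Chrnb1 had only 51.1 at E16, against the floor at both, and did not pass. Lrrc23 had 305, against the floor and 83.9. Calm3, a calmodulin gene, lay at the floor at E16, against 523 and 408, and had 469 at E18. Prkdc, a DNA repair kinase, lay at the floor, against 272 and 357, and had 287 at E18, but its chip A probe set had 182, against 208 and 178. Gjb6, a connexin, lay at the floor, against 230.4 and 245, and had 712 at E18. Its chip A probe set showed no fall, with 74.2 at E16, against the floor at E12 and E14. Esr1, an oestrogen receptor, lay at the floor, against 268 and 159.6, and Saa-ps lay there too, against 223 and 151. On these probe sets of Calm3, Prkdc and Gjb6 the low value was that of the E16 pool alone among E12 to E18, as it was in Xist. Among genes above the floor Gimap4, a GTPase of immune cells, had 787, against 201 and 177, and Btrc, a ubiquitin ligase subunit, had 109, against 412 and 354.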
